A study of Pyrocoelia pectoralis with 6 samples.

Results

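The Hox cluster genes Abd-B, ABD-A, Ubx, Antp and Scr were followed in luminous and non-luminous tissue of a firefly, Pyrocoelia pectoralis. They are 5 of the 12533 genes in the expression table and were taken by identifier, as the rows RI129_000704 (Abd-B), RI129_000705 (ABD-A), RI129_000706 (Ubx), RI129_000710 (Antp) and RI129_000712 (Scr). The tissues were the luminous organ (3 libraries, CY-M) and the non-luminous organ (3 libraries, CY-N), all from males. The labels state no treatment, genotype, age or body position, do not describe the non-luminous organ further, and leave unsaid whether each library stands for its own animal or pool. The p-values below therefore rest on variation among libraries that may in part be technical. Symbols come from the deposited table, where descriptions rest on similarity to proteins of other species.

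Hox genes code for transcription factors that bind DNA through a homeodomain and give each body segment its identity. In insects they lie in a cluster whose gene order follows the body axis, and each acts in its own stretch of that axis. Scr acts in the labium and the front of the thorax, Antp in the thorax, Ubx in the hind thorax and first abdominal segment, ABD-A (abd-A in Drosophila) in the middle of the abdomen and Abd-B at its posterior end, including the genital segments. The lantern of male fireflies typically lies on the underside of posterior abdominal segments. Hox genes can stay active in adult tissue.

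Abd-B and ABD-A rose in the luminous organ and Ubx, Antp and Scr fell, so that the direction changed once along the cluster, between ABD-A and Ubx. The ratio of mean FPKM (reads scaled to gene length and library total), luminous over non-luminous, was 37.8 for Abd-B, 3.27 for ABD-A, 0.527 for Ubx, 0.595 for Antp and 0.423 for Scr. Limma called all 5, at a Benjamini-Hochberg adjusted p under 0.05 over all 9863 tested genes. Of all tested genes 26.6% were called, 9.63% higher and 17.0% lower, or 950 and 1676 genes (1480 and 1272 after quantile normalization, 1192 and 1369 after median-of-ratios rescaling, 1178 and 1303 by voom). The organs did not overlap for any of the 5 genes, as was the case for 46.1% of tested genes, with 17.4% on the higher side and 28.7% on the lower side. The calls of ABD-A, Ubx, Antp and Scr were marginal, and each was lost under several alternatives given beside it. Body position and being luminous cannot be told apart in this design, because no label gives the position of either organ. In bulk tissue, fewer cells that use a gene and less of its RNA per cell cannot be told apart either.

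The 5 genes stood in the identifiers in the order known from insect clusters, from posterior to anterior. Between Abd-B and lab, the identifiers run over 15 numbers, of which 14 have a row in the table. They hold 10 genes with a Hox-class description: Abd-B, ABD-A, Ubx, Antp, a gene described as Hox-B7 (RI129_000711), Scr, Dfd (RI129_000715), a gene described as Hox-D3 (RI129_000716), pb (RI129_000717) and lab (RI129_000718). The other 4 are Scpep1 (RI129_000708), RI129_000709, RI129_000713 and HPGD (RI129_000714). No source used here gives genome positions, so the order is that of identifiers, and distances were not measured. Identifier RI129_000707 is not analysed here. The coding lengths read from the FPKM values were 1181 bases for Abd-B, 1107 for ABD-A, 987 for Ubx, 1005 for Antp and 1050 for Scr. That of Abd-B is not a multiple of 3, unlike 96.5% of lengths, and its length and reads could both be larger by a common whole factor, while its FPKM would stay the same. The 2 GO terms that all 5 carried were nucleus and RNA polymerase II-specific transcription factor activity, and none carried a KEGG pathway.

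Abd-B, the posterior-most gene of the cluster, had 38.5, 29.2 and 20.2 FPKM in luminous replicates 1, 2 and 3, against 0, 1.20 and 1.13 FPKM in non-luminous replicates 1, 2 and 3. The lowest luminous library stood far above the highest non-luminous one. As recovered, these values rest on 453 to 912 reads in the luminous libraries and on 0 to 26 reads in the non-luminous libraries. A count of 0 allows up to 3 reads, or 0.135 FPKM, in non-luminous replicate 1, and this limit, like the intervals below, covers counting error only. On the log2(FPKM + 1) scale, where changes of low genes come out too small, Abd-B differed by 4.13 (SE 0.367, limma adjusted p = 0.00084), and it was called under all 15 alternatives. Abd-B passed the filter on low values, a mean of 1 FPKM over the 6 libraries, through the luminous libraries, as its non-luminous mean was 0.775 FPKM. It was still called with no such filter (adjusted p = 0.0023, range over the alternatives 0.000639 to 0.0123).

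The spread of Abd-B among luminous libraries was larger than counting error. The exact Poisson 95% intervals were 36.1 to 41.1 FPKM in luminous replicate 1, 27.1 to 31.4 in replicate 2 and 18.4 to 22.2 in replicate 3, and they do not overlap. Ranked against all genes of the same library, Abd-B stood above 76.4%, 71.4% and 63.7% of genes in luminous replicates 1, 2 and 3, against 0%, 22.6% and 23.5% in the non-luminous replicates. It was thus a gene of above-median level in each luminous library and a low gene in each non-luminous one.

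ABD-A, the gene of the middle abdomen, had 5.50, 8.36 and 6.39 FPKM in the luminous replicates, against 0.431, 3.0 and 2.75 FPKM in the non-luminous replicates. The groups did not overlap, and non-luminous replicate 1 lay far below the other two. Its 9 reads give an exact Poisson 95% interval of 0.197 to 0.818 FPKM, which does not reach the 2.29 to 3.85 FPKM of replicate 2 or the 2.07 to 3.58 FPKM of replicate 3. ABD-A differed by 1.46 in log2 (SE 0.410, limma adjusted p = 0.0363). Leaving out non-luminous replicate 1 gave 0.98, which was still called. The call was lost without luminous replicate 2 (1.32, adjusted p = 0.0891), without luminous replicate 3 (1.49, 0.0897) and without non-luminous replicate 3 (1.68, 0.0644), and the alternatives gave adjusted p of 0.0208 to 0.0897.

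**Figure D1:**
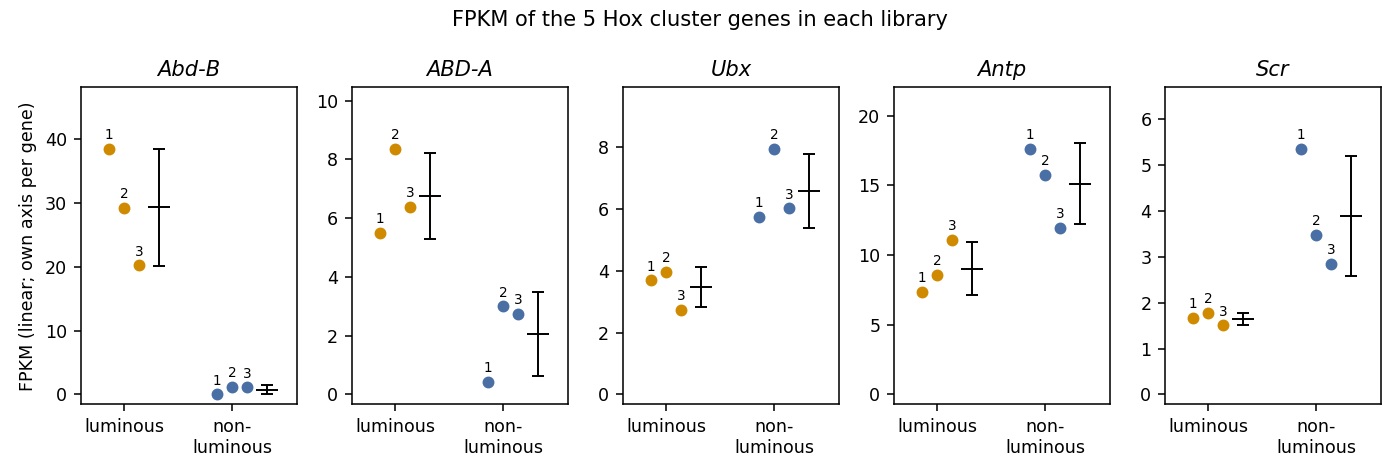
FPKM (linear axis from 0, one axis per gene) of the 5 Hox cluster genes in each library, luminous left and non-luminous right. Numbered points are replicates, and the bar beside them is the mean ± SD (n = 3). Abd-B and ABD-A lie higher in all luminous libraries, and Ubx, Antp and Scr lie lower.

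Ubx, which in Drosophila turns the hind thorax and first abdominal segment away from the identity Antp gives, had 3.69, 3.97 and 2.73 FPKM in the luminous replicates, against 5.75, 7.94 and 6.01 FPKM in the non-luminous replicates. Each luminous library lay below each non-luminous one, on 51 to 80 reads against 107 to 144 reads. Ubx differed by -0.76 in log2 (SE 0.213, limma adjusted p = 0.0358). The call was lost when luminous replicate 3 was left out (-0.64, adjusted p = 0.0979) and when any non-luminous library was (-0.84, -0.64 and -0.81 for replicates 1, 2 and 3, adjusted p = 0.0723, 0.121 and 0.0928). The alternatives gave it adjusted p of 0.0265 to 0.121, and the call was also lost under rescaling.

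Antp, the main thoracic Hox gene, had 7.35, 8.58 and 11.1 FPKM in the luminous replicates, against 17.6, 15.8 and 11.97 FPKM in the non-luminous replicates. The groups did not overlap, but luminous replicate 3 and non-luminous replicate 3 lay close together. Their exact Poisson 95% intervals, 9.63 to 12.7 and 10.4 to 13.7 FPKM, overlap. Ranked within its library, Antp stood above 44.2%, 46.0% and 51.7% of genes in the luminous replicates, against 57.1%, 55.3% and 49.6% in the non-luminous replicates, so that by rank the groups overlapped. Antp differed by -0.69 in log2 (SE 0.209, limma adjusted p = 0.0467). Leaving out luminous replicate 1 or 2 gave -0.57 or -0.67 (adjusted p = 0.090 or 0.0912), and leaving out non-luminous replicate 1, 2 or 3 gave -0.58, -0.65 or -0.84 (0.154, 0.131 or 0.0583). The call thus held only without luminous replicate 3, among the fits with 1 library left out, and its adjusted p ran from 0.0427 to 0.154 over the alternatives.

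Scr, named for the sex comb of the fly foreleg, had 1.66, 1.77 and 1.51 FPKM in the luminous replicates, against 5.35, 3.47 and 2.85 FPKM in the non-luminous replicates. The luminous libraries were close to each other and all below the non-luminous ones, of which replicate 1 was highest. Scr differed by -0.85 in log2 (SE 0.251, limma adjusted p = 0.0421). The call was lost with any 1 library left out: leaving out luminous replicates 1, 2 and 3 gave -0.86, -0.89 and -0.82 (adjusted p = 0.0649, 0.0676 and 0.107), and leaving out non-luminous replicates 1, 2 and 3 gave -0.65, -0.90 and -1.01 (0.131, 0.0942 and 0.0632). Its adjusted p lay between 0.0274 and 0.131 over the alternatives. Scaling also bore on Ubx, Antp and Scr. Quantile normalization moved the median difference of all tested genes to 0.0741, against -0.0949 as deposited. Relative to the median as deposited, the 5 differences were 4.23, 1.56, -0.67, -0.59 and -0.76 from Abd-B to Scr, and no alternative turned the sign of any of the 5.

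**Figure D2:**
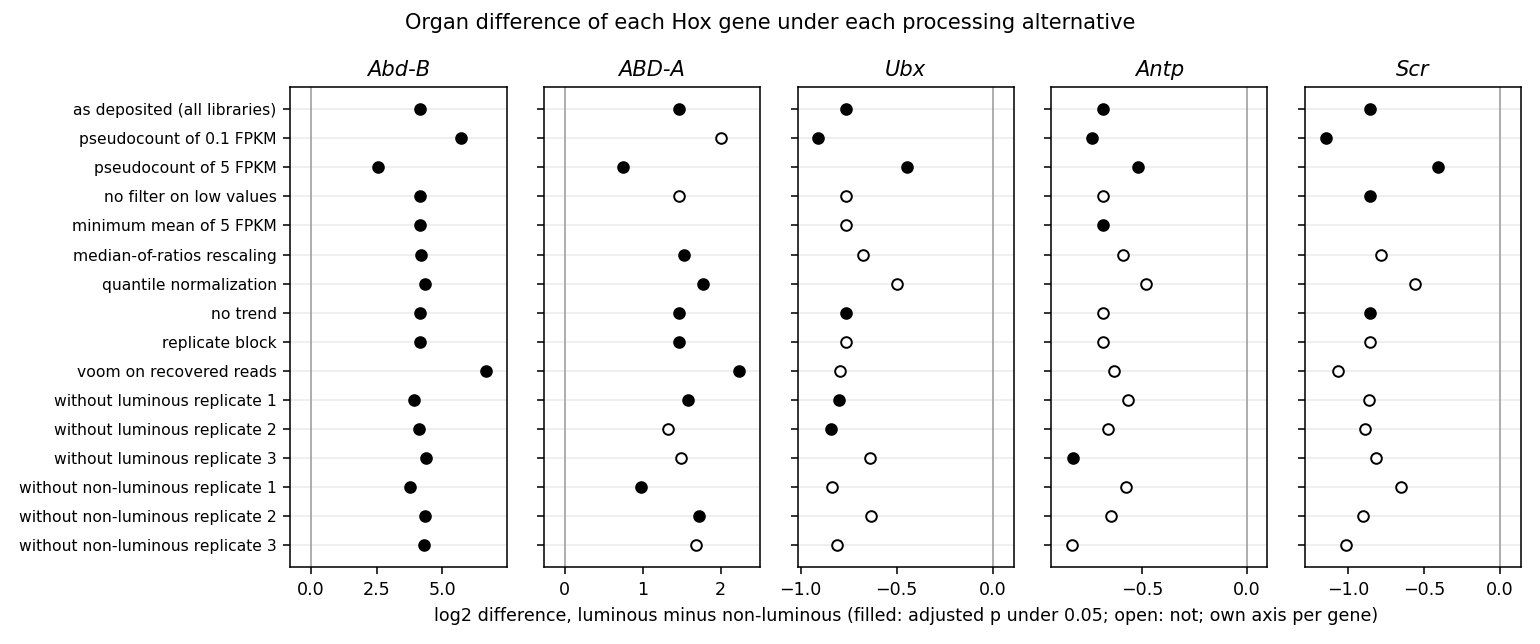
Log2 difference (luminous minus non-luminous, own axis per gene) of the 5 Hox genes as deposited and under each alternative. Filled points had an adjusted p under 0.05, open points did not, and a missing point was not tested. Abd-B is filled throughout (2.54 to 6.66), while most points of Ubx, Antp and Scr are open.

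The mix of Hox transcripts within a library does not depend on how libraries are scaled to each other, and FPKM is a level per gene length, so genes can be compared within a library. Abd-B made up 67.9%, 56.3% and 48.3% of the summed FPKM of the 5 genes in the luminous replicates, against 0%, 3.82% and 4.56% in the non-luminous replicates. Antp made up 13%, 16.5% and 26.4% in the luminous replicates, against 60.4%, 50.2% and 48.4% in the non-luminous replicates. Each organ thus had its own leading Hox gene in all 3 libraries, Abd-B in the luminous and Antp in the non-luminous organ. Abd-B and ABD-A together held 77.6%, 72.4% and 63.5% in the luminous replicates, against 1.48%, 13.4% and 15.7% in the non-luminous replicates. The 5 genes summed to 50.2 ± 7.54 FPKM in luminous libraries and to 28.4 ± 3.39 FPKM in non-luminous libraries (SD, n = 3 each).

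**Figure D3:**
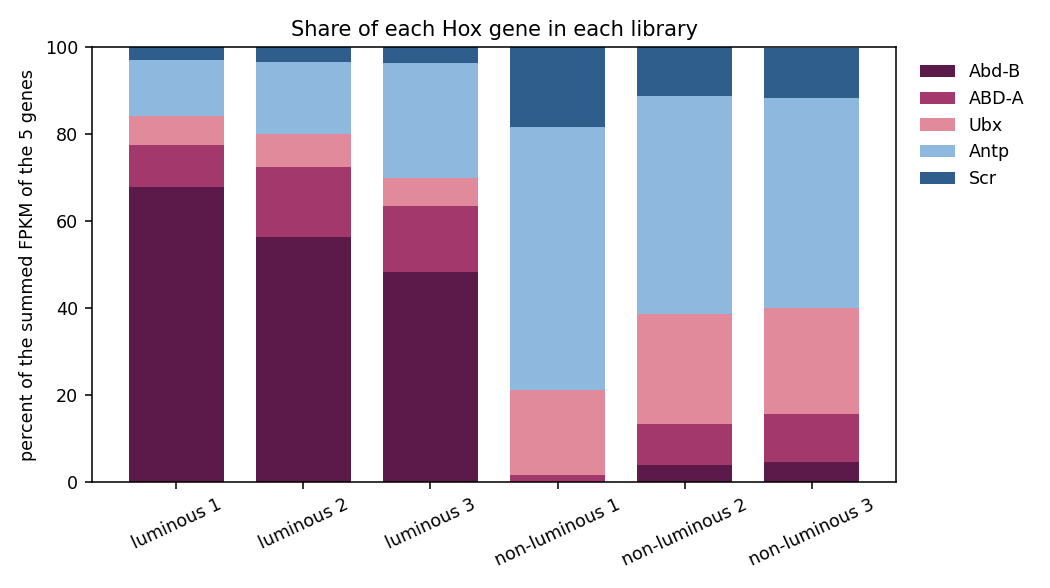
Share of each of the 5 Hox genes in their summed FPKM (percent, stacked bars, one bar per library). Abd-B fills 48.3% to 67.9% of the luminous bars and at most 4.56% of the non-luminous bars, where Antp fills 48.4% to 60.4%.

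Ratios between neighbours showed where along the cluster the mix differed. ABD-A over Ubx was 1.49, 2.11 and 2.34 in the luminous replicates, against 0.075, 0.378 and 0.458 in the non-luminous replicates, with no overlap. Abd-B over ABD-A was 7.01, 3.49 and 3.17 in the luminous replicates, against 0, 0.40 and 0.409 in the non-luminous replicates. On the other side, Ubx over Antp was 0.502, 0.463 and 0.246 in the luminous replicates, against 0.326, 0.504 and 0.502 in the non-luminous replicates, and the groups overlapped. Antp over Scr was 4.42, 4.84 and 7.35 in the luminous replicates, against 3.29, 4.54 and 4.2 in the non-luminous replicates, again with overlap. These ratios were not tested.

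By mean FPKM the luminous order was Abd-B, Antp, ABD-A, Ubx and Scr. The ranges of Antp and ABD-A overlapped there, and those of the other neighbours in that order did not. In the non-luminous organ the order was Antp, Ubx, Scr, ABD-A and Abd-B. There the ranges of Scr and ABD-A overlapped, as did those of ABD-A and Abd-B, although each of the 3 libraries by itself kept the stated order in both organs. Non-luminous replicate 1 had the lowest Abd-B and ABD-A and the highest Antp and Scr of its organ, while over all genes, which are not independent replicates, its organ's libraries were alike (Pearson's r of 0.979 to 0.981).

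The 5 other Hox-class genes were at or near the limit of detection in both organs, and none passed the filter. They are anterior to Scr in the order, except the gene described as Hox-B7. Dfd, which patterns the mandibular and maxillary head segments, had 0, 1.32 and 0.476 FPKM in the luminous replicates, against 0.119, 1.23 and 0.749 FPKM in the non-luminous replicates, on at most 12 reads in a library. The gene described as Hox-D3 had 13 reads in luminous replicate 3 and 0 or 1 read in each other library. For pb, a gene of the mouthparts, there were 0, 6 and 2 reads in the luminous replicates, against 7, 2 and 15 in the non-luminous replicates. For lab, the most anterior gene of the order, there were 0 reads in each luminous library, which allows 0.51 to 0.55 FPKM, against 4, 1 and 5 reads in the non-luminous replicates. The gene described as Hox-B7, between Antp and Scr, was listed at 0 in all libraries except non-luminous replicate 1, at 0.298 FPKM. At this depth no difference between organs was detectable for Dfd, pb or the genes described as Hox-B7 and Hox-D3. The fit with no filter on low values called 1 of the 5 lower and none higher, beside 1567 lower and 849 higher of all 12533 genes. Of the 5, only lab had groups that did not overlap, on 0 luminous and 10 non-luminous reads in all.

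Genes just outside the cluster, and those placed between its members, had their own patterns. On the Abd-B side, EIF4B (RI129_000700), a translation initiation factor, had a log2 difference of -0.37 (limma adjusted p = 0.0351, range 0.0305 to 0.123). Its call was lost in 9 of 15 alternatives, among them those without luminous replicate 2 or 3 or without any 1 non-luminous library. TMED3 (RI129_000701), RI129_000702 and yipf5 (RI129_000703) had differences of -0.07, -0.50 and -0.25 with adjusted p of 0.782, 0.273 and 0.157. Next to Ubx, the serine carboxypeptidase gene Scpep1 had 0, 0.566 and 0.188 FPKM in the luminous replicates, against 9.24, 2.95 and 4.98 FPKM in the non-luminous replicates (log2 difference -2.34, limma adjusted p = 0.0062). Scpep1 passed the filter through the non-luminous libraries, as its luminous mean was 0.251 FPKM. Over the alternatives its difference ran from -5.10 to -0.99 and its adjusted p from 0.00712 to 0.0322. RI129_000709, RI129_000713 and HPGD were too low to be tested. None of the 5 tested neighbours was called higher.

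**Figure D4:**
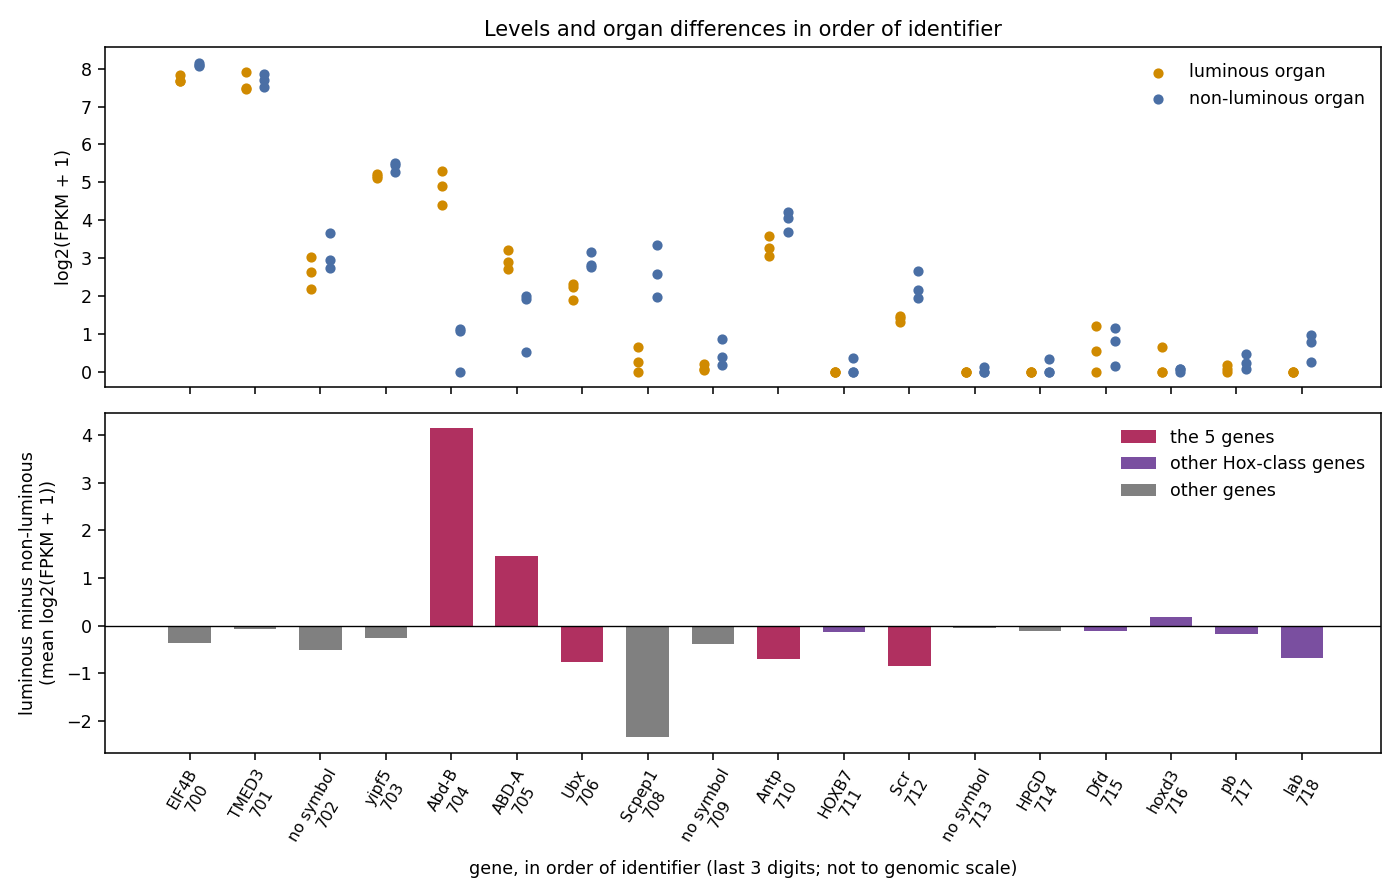
Upper panel, log2(FPKM + 1) of each library for genes in order of identifier around the Hox cluster. Lower panel, the luminous minus non-luminous difference of group means on that scale, for the 5 genes, the other Hox-class genes and their neighbours. The bars of Abd-B (4.13) and ABD-A (1.46) point up, and those of Ubx, Antp and Scr point down.

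Hox proteins bind DNA together with cofactors of the TALE homeodomain class, and their transcription is held off by the Polycomb group and kept on by the trithorax group, both of which act on chromatin. Genes of these classes were taken by symbol or description and are given as counts beside all tested genes. Of all tested genes 9.63% were called higher and 17.0% lower, and their median difference was -0.0949. Of 4 tested cofactor genes, 1 was higher and 0 lower (2 and 0 at an unadjusted p under 0.05, 2 and 0 in a voom fit on recovered reads), with a median difference of 0.396. Of the 4, tio (RI129_006130, described as protein tiptop) is not of the TALE class. It was not called (0.30, limma adjusted p = 0.213). The higher one was exd (RI129_001134), the main Hox cofactor of the fly, which had 148, 120.6 and 140.4 FPKM in the luminous replicates, against 96.7, 102.9 and 89.7 FPKM in the non-luminous replicates. It rose by 0.49 in log2 (SE 0.120, limma adjusted p = 0.0226, range 0.0122 to 0.0918), and its call was lost without luminous replicate 3 or any non-luminous library. MEIS1 (RI129_003147), whose vertebrate namesake works with the exd homologues, had 65.8 ± 16.3 FPKM in luminous and 42.6 ± 7.72 FPKM in non-luminous libraries (SD, n = 3 each). Its limma adjusted p was 0.0693, with 0.0328 to 0.211 over the alternatives, and rescaling, voom or a replicate block brought it under the threshold. With that block exd was no longer called.

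Of 24 Polycomb group genes as matched, 0 were higher and 3 lower (0 and 6 at an unadjusted p under 0.05, 0 and 3 by voom), with a median difference of -0.194. One of the 3 was a pyruvate carboxylase matched by its symbol Pc. The others were MTF2 (RI129_001501, -0.95), a Polycomb-like protein, and L3MBTL3 (RI129_006064, -0.68), of the MBT family, with adjusted p of 0.0241 and 0.0227. Both calls were lost without luminous replicate 3 or non-luminous replicate 1 or 3, MTF2 also without luminous replicate 2 and L3MBTL3 without non-luminous replicate 2. Leaving out the mismatched genes, 2 of 22 were lower, beside 17.0% of all tested genes. The count lower was 4, 2 and 0 when luminous replicates 1, 2 and 3 were left out, and 0, 1 and 0 when non-luminous replicates 1, 2 and 3 were. The core genes Pc (RI129_006135) and E(z) (RI129_008523), the reader and the writer of the Polycomb histone mark, had differences of -0.45 and -0.15 (adjusted p = 0.348 and 0.514; both chosen after their values were seen).

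Of 34 trithorax group genes, 0 were higher and 2 lower (0 and 5 at an unadjusted p under 0.05, 0 and 1 by voom), with a median difference of -0.146 that became 0.0472 after quantile normalization. Over all tested genes 9.63% were higher and 17.0% lower. Several of the 34 share the symbol lolal, described as longitudinals lacking protein-like, such as RI129_001416 and RI129_002075. None of these was called, and whether each belongs to the group was not examined. The histone demethylase gene lid (RI129_011691) had 19.7, 21.3 and 19.5 FPKM in the luminous replicates, against 46.8, 35.4 and 38.8 FPKM in the non-luminous replicates. It fell by 0.96 on the log2 scale (SE 0.140, limma adjusted p = 0.00445) and was called under all alternatives. Set1 (RI129_012870), a histone methyltransferase gene, differed by -0.43 (adjusted p = 0.0423, range 0.0309 to 0.129), and its call was lost without luminous replicate 2 or 3 or without any 1 non-luminous library. The count lower was 3 without luminous replicate 1 and 1 with any other library left out. The gene family's founder trx was listed under 2 identifiers, RI129_011622 and RI129_011628, which were not called.

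Segmentation genes lay out the embryo's segments and set the limits of Hox expression. Of 19 tested, 6 were higher and 1 lower (9.63% and 17.0% of all tested genes), with a median difference of 0.557. The posterior homeobox gene cad (RI129_007050), which in insects patterns the hind end and hindgut, had 22.7, 23.3 and 37.6 FPKM in the luminous replicates, against 1.86, 7.84 and 10.8 FPKM in the non-luminous replicates. Its lowest non-luminous value was in replicate 1, as for Abd-B and ABD-A. The other genes that rose were drm (RI129_010313, 1.62) and bowl (RI129_010316, 0.65) of the odd-skipped family, knrl (RI129_008499, 1.48), ci (RI129_010951, 0.86), the transcription factor of the Hedgehog pathway, and slp2 (RI129_008115, 0.80). The POU-domain gene nub (RI129_008050) fell by 4.73, with 0.681, 0.495 and 1.42 FPKM in the luminous replicates, against 70.5, 30.5 and 49.3 FPKM in the non-luminous replicates. With a luminous mean of 0.864 FPKM, nub passed the filter on low values through the non-luminous libraries. Its difference ran from -5.79 to -3.17 over the alternatives. The calls of drm and nub held under all alternatives. Leaving out luminous replicate 3 ended the call of cad. Those of knrl and ci were lost without non-luminous replicate 3, that of bowl without any 1 non-luminous library, and that of slp2 without luminous replicate 2 or 3 or any non-luminous library. Without non-luminous replicate 3 the count higher was 2 and the count lower 1. Among the 30 matched genes were Hairless and giant-lens, which are no segmentation genes.

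Of 30 tested genes reported as Hox targets in Drosophila, 8 were higher and 2 lower (9.63% and 17.0% of all tested genes), with a median difference of 0.278. The signalling gene dpp (RI129_007071) had 75.3, 72.7 and 106.1 FPKM in the luminous replicates, against 38.0, 38.4 and 26.01 FPKM in the non-luminous replicates (log2 difference 1.29, limma adjusted p = 0.00576). The EGF pathway gene rho (RI129_009399) and a yellow gene (y, RI129_009828), of a family that includes the fly's pigmentation gene, rose by 1.12 and 0.87 (adjusted p = 0.00504 and 0.0102). The nuclear receptor gene svp (RI129_012172) fell by 1.10 on the log2 scale (adjusted p = 0.00921), with 19.6, 26.4 and 15.2 FPKM in the luminous replicates, against 39.3, 44.1 and 48.0 FPKM in the non-luminous replicates. These 4 calls held under all alternatives. The limb gene Dll (RI129_003620), which abdominal Hox proteins repress in fly embryos, had 7.18, 7.69 and 17.5 FPKM in the luminous replicates, against 3.67, 5.24 and 2.10 FPKM in the non-luminous replicates (log2 difference 1.29, adjusted p = 0.0445, range 0.0263 to 0.144). Its call was lost without luminous replicate 2 or 3 or without any 1 non-luminous library. The other gene called lower, the GATA factor gene grn (RI129_006764), differed by -0.68 (adjusted p = 0.0351, range 0.0202 to 0.149), and its call was lost with any 1 library left out. The count higher was 5 when luminous replicate 3 was left out and 5, 4 and 3 when non-luminous replicates 1, 2 and 3 were, and the count lower was 3 without luminous replicate 1 and 1 with any other library left out. Which of these genes a Hox protein binds in this firefly was not measured.

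**Figure D5:**
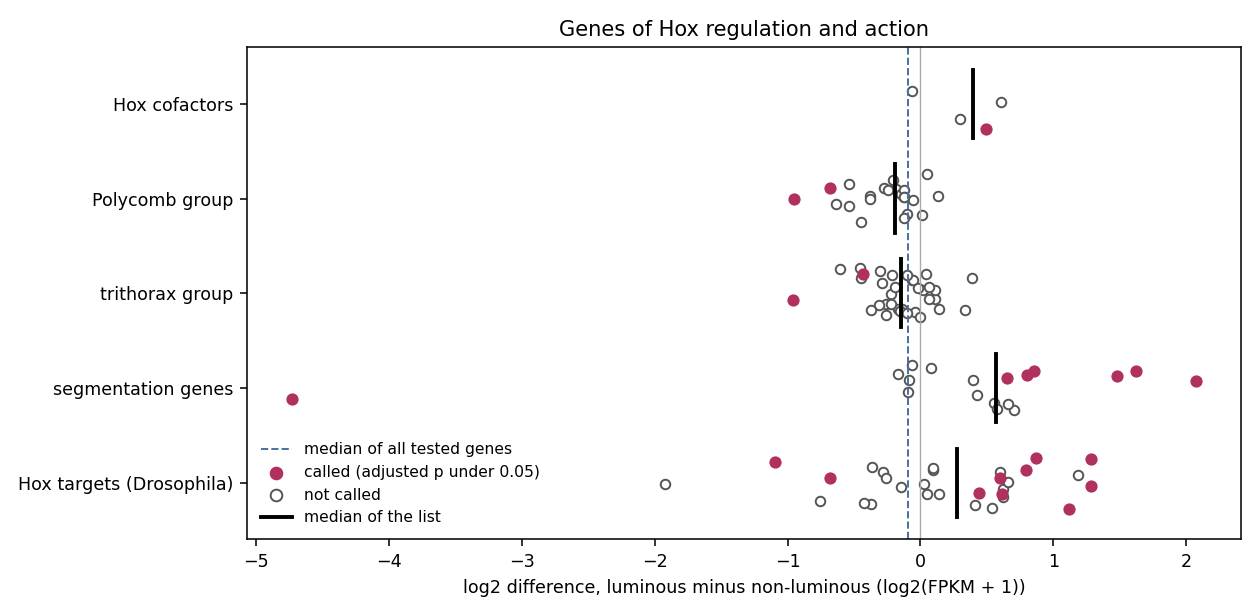
Log2 difference (luminous minus non-luminous, log2(FPKM + 1)) of each tested gene in 5 lists, mismatched genes taken out. Filled points were called at adjusted p under 0.05, black bars mark the median of each list, and the dashed line marks the median of all tested genes (-0.0949). The segmentation and target lists hold the called genes that lie highest, and the nub gene lies far to the left.

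For the Hox genes, the closest profiles were sought only among tested genes with a symbol, which 8950 of all 12533 genes have. Closest were those with the smallest root-mean-square distance between centred log2(FPKM + 1) values over the 6 libraries. Shared function was not examined. Nearest to Abd-B were the trehalose transporter gene Tret1 (RI129_009288), the receptor kinase gene Cad96Ca (RI129_001390) and SCCPDH (RI129_004818), at distances of 0.466, 0.574 and 0.640. Nearest to ABD-A were a10 (RI129_002301), UTG2 (RI129_007037) and a second Tret1 (RI129_005358), at 0.375 to 0.386. Nearest to Ubx were Picot (RI129_010386), PPAF1 (RI129_010659) and JHAMT (RI129_009159), at 0.0747 to 0.0935. Nearest to Antp were Gld (RI129_007896), unc-104 (RI129_010305) and Nipal4 (RI129_006644), at 0.0754 to 0.112. Nearest to Scr were Nrt (RI129_007438), AVPR1A (RI129_003356) and Ankib1 (RI129_003520), at 0.0687 to 0.105. None of the 5 Hox genes was among the 3 nearest of another, and the 5 other Hox-class genes were not tested and so could not appear. Genes within double the nearest distance numbered 9 for Abd-B, 955 for ABD-A, 25 for Ubx, 19 for Antp and 10 for Scr. Many genes thus lay about as close to ABD-A as those named.

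Markers of muscle, midgut, fat body and testis, as matched by symbol or description, differed in summed level between the organs without overlap. Their part in the Hox differences was not tested. The counts of called markers stand against the 26.6% of all tested genes that were called, 9.63% higher and 17.0% lower. Library totals lay between 18.04 and 20.42 M reads. The luciferase-type gene RI129_003463 lay at 292 to 532 FPKM in luminous and 0.322 to 0.595 FPKM in non-luminous libraries. Summed muscle markers were 38670 to 40580 FPKM in the luminous and 16370 to 21540 FPKM in the non-luminous libraries, with 12 of 21 genes higher and 0 lower (13 and 0 at an unadjusted p under 0.05). Summed midgut digestion markers were 1829 to 2979 FPKM in the luminous and 6192 to 7851 FPKM in the non-luminous libraries, with 4 of 58 higher and 27 lower, and the count higher was 2 when luminous replicate 3 was left out and 2, 2 and 1 when non-luminous replicates 1, 2 and 3 were. Among the 4 higher was ITIH4 (RI129_005545), described as an inter-alpha-trypsin inhibitor heavy chain and matched by the word trypsin, which is no digestive enzyme. Fat body markers as matched summed to 391 to 614 FPKM in the luminous and 1061 to 1182 FPKM in the non-luminous libraries, with 1 of 8 higher and 7 lower (3 lower without non-luminous replicate 3). Among the 7 was a fructose-1,6-bisphosphatase (RI129_001820) matched by its symbol FBP1. It held 73.1 to 131.5 FPKM of the luminous and 246.9 to 335.5 FPKM of the non-luminous sums. Leaving out the mismatched genes, 1 of 7 was higher and 6 were lower. Of 17 neuron markers 1 was higher and 4 lower, of 39 testis and germline markers 0 and 8, and of 10 head and eye markers 0 and 0 (1 and 1 at an unadjusted p under 0.05, 1 and 0 by voom). Summed testis markers as matched were 793.8 to 826.7 FPKM in the luminous and 871.7 to 999.5 FPKM in the non-luminous libraries. Among the 8 called lower were the PAOX genes RI129_010144 and RI129_012939. They are spermine and spermidine oxidase genes, matched through the word sperm, and are no testis markers. The sums of neuron markers (314.7 to 616.5 FPKM luminous, 405.8 to 485.7 FPKM non-luminous) and of head and eye markers (141.7 to 173.0 and 159.1 to 202.4 FPKM) overlapped. For neurons the count higher was 2 without luminous replicate 1 and 0 without luminous replicate 3 or any non-luminous library. For testis the count lower was 5, 5 and 0 when luminous replicates 1, 2 and 3 were left out, and 1, 2 and 0 when non-luminous replicates 1, 2 and 3 were. No marker list held a gene at 0 in all 6 libraries.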

How the data were processed

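FPKM values of 12533 genes in 6 libraries were used as deposited by the authors. The submitters' processing notes list HISAT2, Trimmomatic, R 3.2.0 and HTSeq without saying what each did. Genome build, annotation and the strand setting of the counting were not given in the sources used. The kit keeps strand, per the labels' protocols. Reads of similar or antisense genes may be shared.

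Reads were recovered from the steps between low values, for 99.07% of 11795 genes within 0.05 of a whole number. Of the lengths, 96.5% are multiples of 3, so they are called coding lengths here. Values were tested as log2(FPKM + 1) with limma 3.58.1 in R 4.3.3 (intensity trend, two-sided, no block), for the 9863 genes whose mean over all libraries reached 1 FPKM. The fits were tested on simulated data. The 15 alternatives were other pseudocounts, filters and scalings, no trend, a replicate block, voom on recovered reads and each library left out.

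The members, the 12 gene lists and the tests were chosen with earlier results of these data known. Named genes were the members, genes RI129_000700 to RI129_000716, other Hox-class genes, up to 3 called genes per list and direction, and the 3 nearest profiles per member among tested genes with a symbol. Genes outside this rule were chosen after their values were seen: bowl, ci, slp2, the yellow gene, MEIS1, tio, Pc, E(z) and trx. The luciferase-type gene RI129_003463 also lay outside this rule, as did the genes named under other observations.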

Additional observations from a re-analysis of the deposited data

How the results depend on the processing

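No alternative turned the direction of a Hox gene, and Abd-B was called under all 15 (2.54 with a pseudocount of 5 FPKM, 6.66 with voom). The following log2 differences were no longer called. For ABD-A they were 2.01 with a pseudocount of 0.1 FPKM and 1.46 with no filter on low values. For Ubx they were -0.68 with median-of-ratios rescaling, -0.50 with quantile normalization, -0.79 with voom, and -0.76 with no filter or a minimum mean of 5 FPKM. For Antp they were -0.59 with median-of-ratios rescaling, -0.48 with quantile normalization, -0.64 with voom, and -0.69 with no filter or no trend. For Scr they were -0.78, -0.56 and -1.07 with rescaling, quantile normalization and voom. With a minimum mean of 5 FPKM, ABD-A and Scr were not tested. The causes were not tested. Genes called higher over the whole table numbered 1480 after quantile normalization, against 950. Some list counts moved by over 1.5 times outside the fits with a library left out. Cofactors higher were 2 after rescaling, quantile normalization or voom, against 1, and trithorax genes lower 1 under those settings and with no filter, against 2. Muscle markers higher were 6 by voom, which tested 12, against 12 of 21. Testis markers lower were 2 after rescaling or by voom, 3 after quantile normalization and 5 with no trend, against 8. Neuron markers lower were 2 with a minimum mean of 5 FPKM, against 4. Hox targets lower were 1 with that minimum, rescaling, quantile normalization or voom, against 2.

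With 1 library left out, differences ranged from 3.76 to 4.37 for Abd-B, 0.98 to 1.72 for ABD-A, -0.84 to -0.64 for Ubx, -0.84 to -0.57 for Antp and -1.01 to -0.65 for Scr, and the genes called over the whole table from 1096 to 2665, against 2626 with all libraries. Of these fits, those without luminous replicate 3 or any non-luminous library called at most 1605. Those without luminous replicate 1 or 2, of the same size, called 2665 and 2621. A fit with fewer libraries has less power, and why these fits differed was not tested.

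Same-numbered libraries did not deviate together (correlations of -0.111, -0.00869 and -0.166 for numbers 1, 2 and 3), so the numbers were not taken as pairs. With the replicate block, Ubx (-0.76), Antp (-0.69) and Scr (-0.85) were no longer called and 1996 genes were. The 1 cofactor called was then MEIS1 and not exd. Targets higher were then 5 and lower 1, midgut markers higher 2, testis markers lower 2, trithorax genes lower 1 and neuron markers higher 0.

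Depth limits the anterior Hox genes, on 15 reads or fewer in a library, and Scr, on 30 to 106 reads.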

Other observations

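The following 3 low genes of body patterning were chosen after their values were seen. The first 2 were below the filter and were not tested. The pair-rule homeobox gene eve (RI129_003631) had 0.45, 1.10 and 0.951 FPKM in the luminous replicates, against 0.0597, 0 and 0.187 FPKM in the non-luminous replicates. A Pax-6 gene (PAX6, RI129_007263), of the family that directs eye formation, was listed at 0 in the 3 luminous libraries, against 1.31, 1.48 and 0.0687 FPKM in the non-luminous replicates. The sex-determination gene dsx (RI129_004060), which acts with Abd-B in the fly abdomen, had 0.667, 0.857 and 0.706 FPKM in the luminous replicates, against 2.56, 1.34 and 2.05 FPKM in the non-luminous replicates. Its groups did not overlap, and limma gave an adjusted p of 0.0686, with 0.0277 to 0.315 over the alternatives.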
